A study of Mus musculus with 6 samples.

Results

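Bile acid synthesis was followed here through 10 hepatic enzymes, chosen by their names and not by their values, in mice that had lost estrogen receptor alpha (ERα, gene Esr1) from the liver. All 10 were measured by probe sets that the array's annotation pairs with 1 gene, of 18820 genes measured in that way. The enzymes were taken in 4 sets. Cyp7a1 and Cyp8b1 stood for the classic pathway, and Cyp27a1, Cyp7b1 and Cyp39a1 for the alternative pathway. Hsd3b7, Akr1d1 and Amacr served steps that both pathways share, and Slc27a5 and Baat served conjugation.

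The livers came from 6 female mice on the C57BL/6J background, 3 per group, with 1 Affymetrix Mouse Gene 1.1 ST array for each mouse. Control (CT) mice were homozygous for floxed ERα alleles (ERα fl/fl). LERKO mice had the same floxed alleles together with a transgene that drives cre recombinase from the albumin promoter, which is active in hepatocytes (Alb-cre/ERα fl/fl). Both groups thus carried floxed ERα, and the effect of the transgene cannot be told apart from that of the lost receptor. The age of these 6 mice and whether they were fasted are not given in the sources used here. In whole-liver RNA, fewer cells of a type and less RNA per cell cannot be told apart.

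Hepatocytes turn cholesterol into bile acids, the detergents that carry fat through the gut and the main route by which the body disposes of cholesterol. The classic pathway starts in the endoplasmic reticulum with Cyp7a1, the rate-limiting enzyme, and Cyp8b1 then sets how much of the product becomes cholic acid. The alternative pathway starts from oxysterols, which Cyp27a1 makes in mitochondria and which other enzymes make in other ways. The products of both routes are conjugated, as with taurine, before they leave the cell. Bile acids restrain their own synthesis through the receptor FXR (gene Nr1h4) in liver and gut.

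Promoter sequence was at hand for 4 of the 10 enzymes (Cyp8b1, Cyp27a1, Hsd3b7 and Akr1d1), in RefSeq's annotation of mouse build GRCm38.p6. The window of each ran from 250 bases before the annotated start to 50 bases after it. The consensus estrogen response element (GGTCANNNTGACC, a palindrome and so the same on both strands) was in 0 of these 4 windows and in 0.07% of 32851 windows of all genes. The site of the nuclear receptor Nr5a2 (TCAAGGTCA, searched on both strands) was in 0 of 4 beside 0.423% of all windows. A direct repeat of the nuclear receptor hexamer with 1 base between (AGGTCANAGGTCA, both strands) was in 0 of 4 beside 0.0396%. The hexamer itself (AGGTCA, both strands), which is also contained in the Nr5a2 site and in the direct repeat, was in 1 of 4, beside 16.3% of all windows. The 250 bases before the start are shown for Cyp8b1, the enzyme with the widest spread between mice, which lies on the minus strand at chr9:121916306-121916555, and for Akr1d1, the enzyme whose window holds the hexamer, on the plus strand at chr6:37529923-37530172. Both run 5′ to 3′ toward the gene, and capitals mark the hexamer as read from the opposite strand, which of these 4 windows only that of Akr1d1 holds.
Cyp8b1: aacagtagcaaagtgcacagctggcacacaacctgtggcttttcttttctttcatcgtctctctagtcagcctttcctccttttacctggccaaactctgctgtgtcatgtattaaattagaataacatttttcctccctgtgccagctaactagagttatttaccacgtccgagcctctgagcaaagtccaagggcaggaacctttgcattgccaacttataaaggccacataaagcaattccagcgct
Akr1d1: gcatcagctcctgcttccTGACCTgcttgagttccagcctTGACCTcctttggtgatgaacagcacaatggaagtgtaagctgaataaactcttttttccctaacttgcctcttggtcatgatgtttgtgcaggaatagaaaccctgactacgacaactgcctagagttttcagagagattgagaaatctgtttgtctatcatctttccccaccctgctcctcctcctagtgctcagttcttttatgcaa
A match of letters is a description of the sequence and not a bound site.

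The targeted gene was lower in each LERKO array. Esr1 had signals of 8.45, 8.78 and 8.29 in CT and of 6.75, 7.06 and 6.77 in LERKO on the log2 scale. This is a 3.13-fold difference, with an adjusted p of 0.149 from limma over all 10633 probe sets that reached a signal of 100 in at least 1 array. No mouse of a group overlapped with the other group. The adjusted p of Esr1 was 0.0409 where a signal of 100 was required in all 6 arrays and 0.0485 with a mean-variance trend in limma.

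Single arrays stood apart by genes of other organs. In CT replicate 3, 4 of 6 pancreas genes and 3 of 5 muscle genes reached a signal of 100, which none of them did in any other array. In LERKO replicate 2, 5 of 6 adrenal genes did so, and again in no other array. Clps and Ctrb1, which serve digestion in the pancreas, were at 9.16 and 9.08 in CT replicate 3 and at most at 4.43 and 3.55 elsewhere. Cyp21a1 and Cyp11b1, enzymes of adrenal steroid production, were at 11.67 and 10.56 in LERKO replicate 2 and at most at 4.05 and 4.17 elsewhere. The muscle genes Acta1 and Ckm were at 8.49 and 8.33 in CT replicate 3 and at most at 6.25 and 6.12 elsewhere, in LERKO replicate 2. CT replicate 3 also had the highest level of 5 of 6 male-biased liver genes, Mup20 and Cyp4a12a among them at 12.43 and 8.17, on average 1.71 above the mean of the 6 mice on the log2 scale. The 5 hepatocyte markers measured (Alb, Apoa1, Ttr, Tat and Cps1) differed by at most 0.13 between the groups and had a summed signal between 45380 and 49917 in the 6 arrays. Of the biliary markers, Krt19, Krt7 and Epcam stayed below a signal of 100 (6.64 on the log2 scale) in all arrays. Sox9, the other one measured, reached it only in CT replicates 1 and 2, and so passed the filter only through CT arrays. It was at 6.79, 7.32 and 6.60 in CT and at 6.52, 6.45 and 6.51 in LERKO. Each LERKO mouse was thus lower than each CT mouse (−0.41 on the log2 scale, limma adjusted p = 0.703), but at levels near or below the filter. Of 4 female-biased liver genes all had a higher mean in LERKO, but only Cyp3a16 had groups that did not overlap. It was at 6.03, 6.09 and 6.74 in CT, below a signal of 100 in replicates 1 and 2, and at 7.71, 7.24 and 9.11 in LERKO. The difference of 1.73 on the log2 scale (limma adjusted p = 0.703) was 1.19 without LERKO replicate 3. Over all probe sets, the groups were apart with LERKO lower for 7.13% and with LERKO higher for 5.91%. Sox9 and Cyp3a16 are named after their values were seen, and Cyp3a16 has close relatives in its gene family that a probe set may also detect. The part of these markers in the enzyme levels was not tested.

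Cyp7a1 was the enzyme with the clearest difference between the groups, with a 1.38-fold higher level in LERKO liver, and the other 9 enzymes had intervals that included no difference. All 10 enzymes reached a signal of 100 in all 6 arrays. In LERKO, 7 had a higher mean and 3 a lower one, beside 46.5% of all probe sets with a higher mean. The median log2 fold change of the 10 was 0.12, beside −0.01 over all probe sets. At an adjusted p under 0.05 in limma 0 of 10 enzymes passed, as did 0 of all 10633 probe sets (0%). At an unadjusted p under 0.05, 1 enzyme was higher (2.98% of all probe sets) and 0 were lower (4% of all probe sets). For 1 enzyme, all LERKO mice lay above all CT mice, as for 5.91% of all probe sets, and for 0 enzymes all lay below, as for 7.13% of all probe sets. A count of 1 in 10 was not read as differing from these shares.

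**Figure D1:**
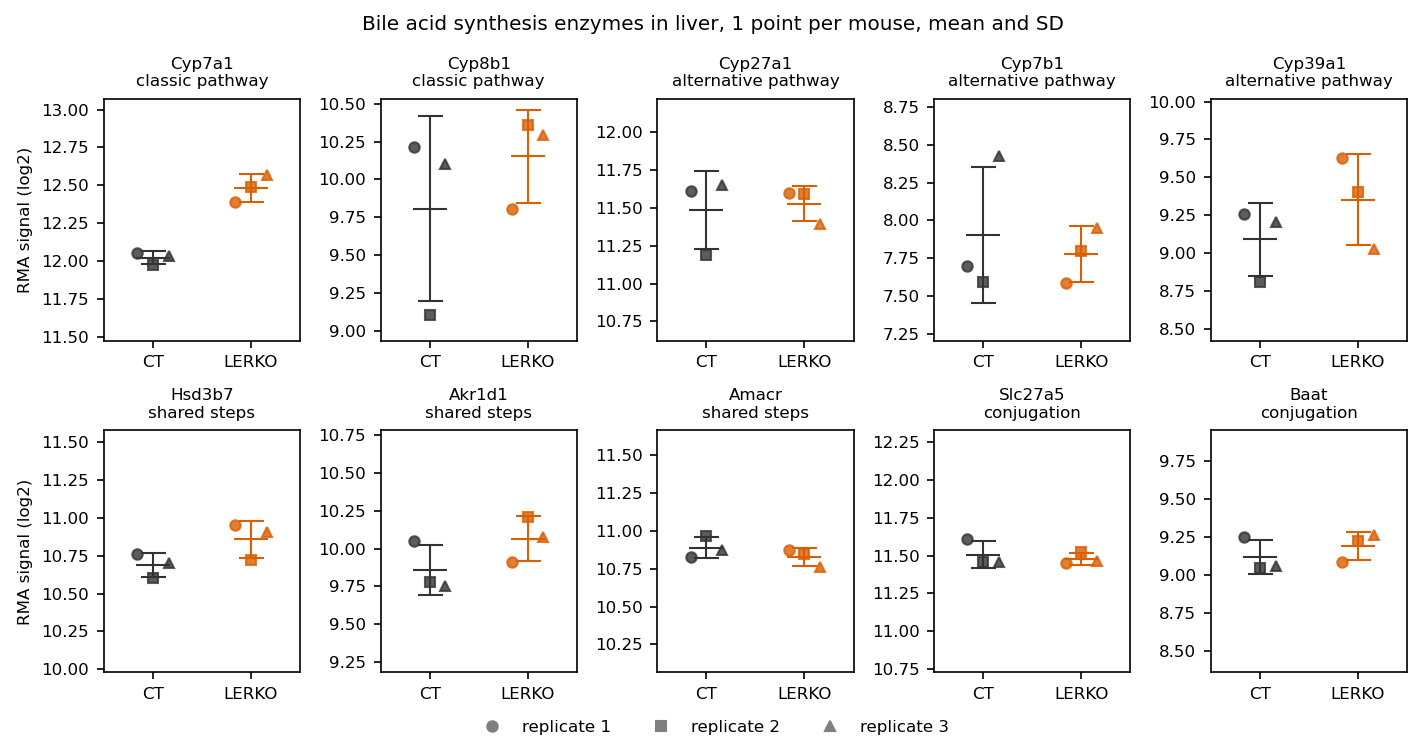
RMA signal (log2) of each of the 10 bile acid synthesis enzymes in CT and LERKO liver, 1 point per mouse with its replicate number as the symbol, and lines for the mean and SD of 3 mice; every panel spans the same width on the log2 axis. The groups are apart for Cyp7a1, with CT between 11.97 and 12.05 and LERKO between 12.39 and 12.57, and overlap for the other 9 enzymes.

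In the classic pathway, Cyp7a1 was at 12.05, 11.97 and 12.04 in the CT mice and at 12.39, 12.49 and 12.57 in the LERKO mice on the log2 scale. All LERKO mice lay above all CT mice, with a gap of 0.33 between the groups. CT mice had a mean of 12.02 ± 0.04 and LERKO mice one of 12.48 ± 0.09 (SD, n = 3 each), and the 1.38-fold difference had a 95% confidence interval of 1.22 to 1.56 from limma. The exact two-sided permutation test gave p = 0.10, which is as low as this test can go with 3 mice in each group. Cyp7a1 ranked 8 by p among the 10633 probe sets (unadjusted p = 0.000583), and its adjusted p was 0.703 in limma. With any 1 mouse left out, its log2 fold change stayed between 0.42 and 0.51, and it was 0.47 without both arrays that carried genes of other organs.

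Cyp8b1, the other enzyme taken for the classic pathway, varied more between mice of a group than it differed between the groups. It was at 10.22, 9.10 and 10.10 in CT and at 9.80, 10.36 and 10.29 in LERKO on the log2 scale. CT replicate 2 was the lowest mouse, and the other CT mice lay within the range of the LERKO mice. The fitted fold difference was 1.27 (95% confidence interval 0.755 to 2.14, adjusted p = 0.823 from limma), and without CT replicate 2 the log2 fold change was −0.0069. The spread of Cyp8b1 within groups was larger than that of 97.2% of all probe sets, whereas that of Cyp7a1 was larger than that of 18.8%.

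The alternative pathway showed no common direction. Cyp27a1, the mitochondrial enzyme that oxidises the sterol side chain in both routes, was at 11.61, 11.19 and 11.65 in CT and at 11.60, 11.59 and 11.40 in LERKO. CT replicate 2 was again the lowest mouse, and the other CT mice lay slightly above all LERKO mice. The fold difference was 1.03 (95% confidence interval 0.818 to 1.30, adjusted p = 0.961 from limma), and the log2 fold change turned from 0.04 to −0.10 without CT replicate 2. It was 0.13 without CT replicate 3 and 0.01 without LERKO replicate 2, the arrays with genes of other organs.

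Cyp7b1, the oxysterol hydroxylase that follows Cyp27a1, is known to be higher in male than in female mouse liver. It was at 7.70, 7.60 and 8.42 in CT and at 7.58, 7.80 and 7.95 in LERKO. CT replicate 3 was the highest mouse, and it is also the array in which 5 of 6 male-biased liver genes had their highest level and pancreas genes were present. The log2 fold change was −0.13 with all mice (95% confidence interval of the fold 0.628 to 1.33, adjusted p = 0.921 from limma) and 0.13 without CT replicate 3. What the RNA of other organs or the male-biased genes contributed to the level of Cyp7b1 in that array was not tested.

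Cyp39a1, which hydroxylates the oxysterol that the brain exports, was at 9.25, 8.81 and 9.20 in CT and at 9.63, 9.40 and 9.03 in LERKO. LERKO replicates 1 and 2 lay above all CT mice, and LERKO replicate 3 lay within the CT range. The fold difference was 1.20 (95% confidence interval 0.884 to 1.63, adjusted p = 0.790 from limma). Its log2 fold change of 0.26 was 0.12 without CT replicate 2, 0.13 without LERKO replicate 1 and 0.43 without LERKO replicate 3.

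Of the enzymes that both pathways share, Hsd3b7 and Akr1d1 had higher means in LERKO and Amacr a slightly lower one. Hsd3b7, which oxidises the ring system after the first hydroxylation, was at 10.76, 10.61 and 10.70 in CT and at 10.95, 10.72 and 10.91 in LERKO. LERKO replicate 2 fell within the CT range and the other LERKO mice lay above it. The fold difference was 1.13 (95% confidence interval 0.972 to 1.30, adjusted p = 0.740 from limma). A further probe set of Hsd3b7 stayed below a signal of 100 in all arrays, at 5.69, 5.40 and 5.65 in CT and at 5.88, 5.85 and 5.84 in LERKO, so that there the groups did not overlap.

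Akr1d1, the reductase that gives bile acids their bent ring, was at 10.05, 9.78 and 9.75 in CT and at 9.91, 10.21 and 10.07 in LERKO. CT replicate 1 lay inside the LERKO range, and LERKO replicate 2, the array with adrenal genes, was the highest. The fold difference was 1.15 (95% confidence interval 0.951 to 1.40, adjusted p = 0.751 from limma). The log2 fold change of 0.21 was 0.13 without LERKO replicate 2 and 0.08 without both that array and CT replicate 3. The part of adrenal RNA in this level was not tested. Its promoter, printed above, holds the hexamer at positions −232 to −227 and −210 to −205 from the annotated start.

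Amacr, the peroxisomal racemase that prepares the side chain for shortening, was at 10.83, 10.97 and 10.87 in CT and at 10.88, 10.85 and 10.76 in LERKO. The 6 mice thus lay within 0.21 of each other, and the groups overlapped. LERKO minus CT was −0.06 ± 0.07 (SE) on the log2 scale, with a limma adjusted p of 0.856.

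The enzymes of conjugation varied little. Slc27a5, which activates bile acids with coenzyme A, was at 11.61, 11.46 and 11.46 in CT and at 11.45, 11.53 and 11.46 in LERKO. Baat, which transfers the activated bile acid to taurine, was at 9.25, 9.05 and 9.06 in CT and at 9.09, 9.23 and 9.26 in LERKO. CT replicate 1 was the highest of the 6 mice for Slc27a5 and the second highest for Baat, and the groups overlapped for both. The fold difference was 0.981 for Slc27a5 (95% confidence interval 0.868 to 1.11) and 1.05 for Baat (0.909 to 1.22), with adjusted p values of 0.949 and 0.861 from limma. The log2 fold change of Slc27a5 turned from −0.03 to 0.02 without CT replicate 1. Without both arrays that carried genes of other organs it was −0.08, and that of Baat went from 0.07 to 0.03.

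**Figure D2:**
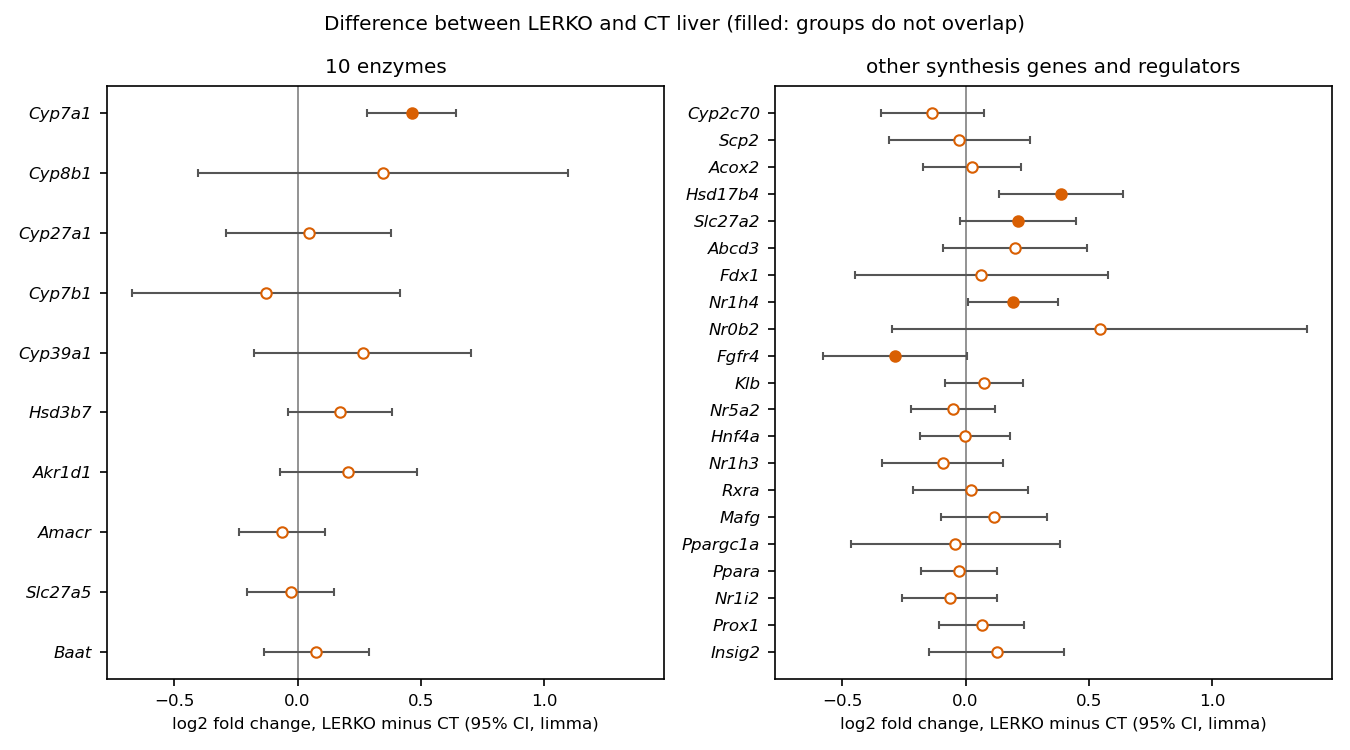
Log2 fold change of LERKO against CT liver with its 95% confidence interval from limma, for the 10 enzymes (left) and for 21 other synthesis genes and regulators (right); filled points are genes whose groups do not overlap. On the left only the interval of Cyp7a1 lies wholly above 0, and on the right those of Hsd17b4 and Nr1h4 do.

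The enzymes differed in how much they varied between mice of a group. Cyp8b1 and the enzymes of the alternative pathway varied most. The pooled SD within groups on the log2 scale was 0.48 for Cyp8b1, 0.34 for Cyp7b1, 0.27 for Cyp39a1 and 0.20 for Cyp27a1. It was between 0.066 and 0.16 for the other 6 enzymes, beside a median of 0.12 over all probe sets. CT replicate 2 had the lowest level of 6 of the 10 enzymes (Cyp7a1, Cyp8b1, Cyp27a1, Cyp39a1, Hsd3b7 and Baat), beside 16.4% of all probe sets. It had the highest level of 1 enzyme, beside 28.3% of all probe sets, the largest such share of the 6 arrays. On average over the 10 enzymes CT replicate 2 lay 0.25 below the mean of the 6 mice, and the other 5 mice lay between 0.02 and 0.11 above it. CT replicate 2 also had the lowest mean level of the 12 clock genes measured (−0.19 from the mean of the 6 mice), of 5 Kupffer cell markers (−0.33) and of 4 female-biased liver genes (−0.65), and the highest of the hepatocyte markers (0.086). The part of these in its enzyme levels was not tested. Without CT replicate 2, 5 of the 10 enzymes had a higher mean in LERKO and 5 a lower one.

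**Figure D3:**
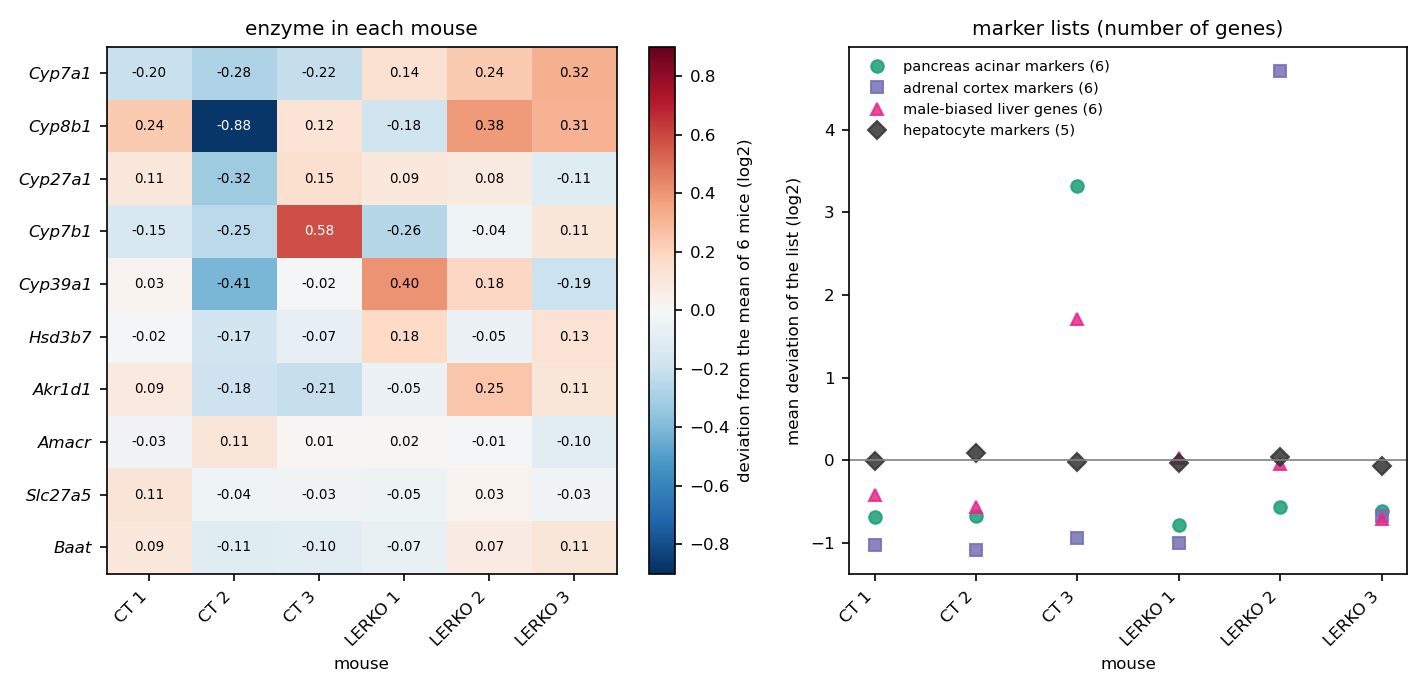
Left, deviation of each enzyme from its own mean over the 6 mice (log2), 1 column per mouse; right, mean deviation (log2) of 4 marker lists in each mouse, with the number of genes in brackets. In the left panel Cyp8b1 is lowest in CT replicate 2 at −0.88 and Cyp7b1 is highest in CT replicate 3 at 0.58, and in the right panel pancreas and male-biased genes are high in CT replicate 3 and adrenal genes in LERKO replicate 2.

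Without both CT replicate 3 and LERKO replicate 2, the log2 fold changes were 0.39 for Cyp8b1, 0.10 for Cyp27a1, 0.12 for Cyp7b1, 0.29 for Cyp39a1, 0.25 for Hsd3b7 and −0.08 for Amacr. Of these 6, Cyp7b1 turned its direction. Leaving out each mouse in turn gave the range of each difference. Cyp7a1, Cyp39a1, Hsd3b7, Akr1d1 and Baat stayed above 0 and Amacr stayed below 0 in all 6 such fits. Of these, Hsd3b7 ranged from 0.12 to 0.24, Akr1d1 from 0.13 to 0.30, Baat from 0.039 to 0.14 and Amacr from −0.093 to −0.023 on the log2 scale. Cyp8b1, Cyp27a1, Cyp7b1 and Slc27a5 each crossed 0 when 1 CT mouse was left out.

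**Figure D4:**
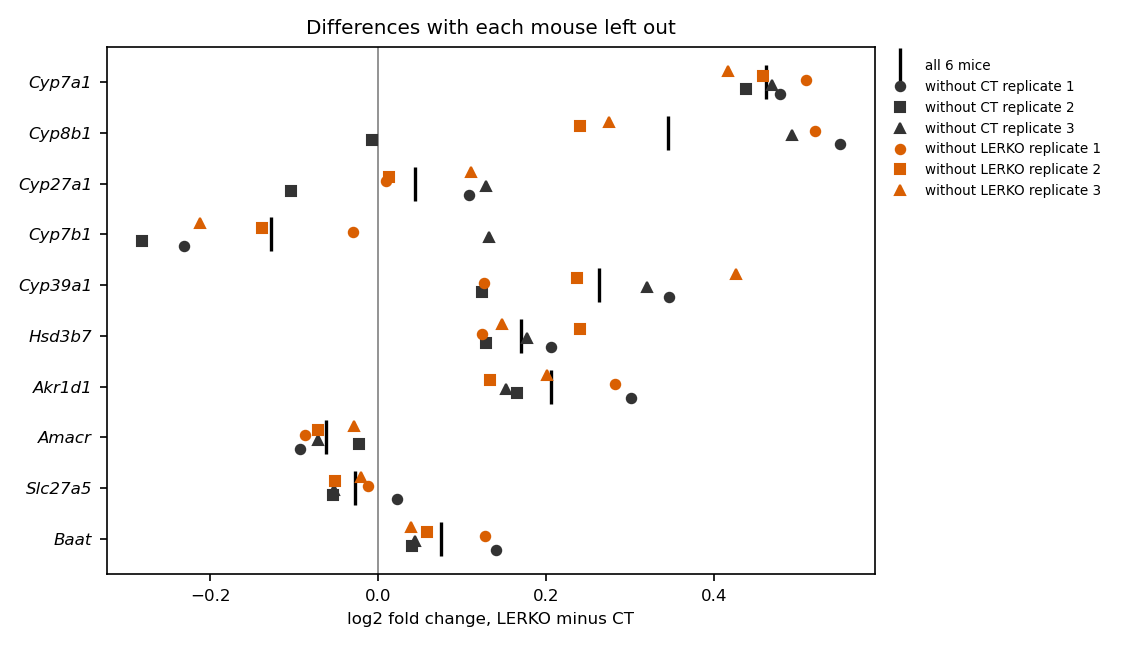
Log2 fold change of LERKO against CT for each enzyme with all 6 mice (vertical bar) and with each mouse left out (points, black for a CT mouse and orange for a LERKO mouse left out, the symbol giving its replicate number). The points of Cyp7a1 stay between 0.42 and 0.51, and those of Cyp8b1 run from −0.0069 without CT replicate 2 to 0.55 without CT replicate 1.

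Among other genes of bile acid synthesis, 7 of 12 listed were kept, of which 5 had a higher and 2 a lower mean in LERKO. The median difference of the 7 was 0.06 on the log2 scale. At an unadjusted p under 0.05 in limma 1 was higher (2.98% of all probe sets) and 0 were lower (4% of all probe sets). After adjustment over all probe sets 0 passed. All LERKO mice lay above all CT mice for 2, beside 5.91% of all probe sets, and below for 0, beside 7.13%. These counts were not tested. Hsd17b4, the peroxisomal enzyme that shortens the bile acid side chain after Amacr, was at 9.76, 9.67 and 9.87 in CT and at 10.32, 9.99 and 10.14 in LERKO. All LERKO mice lay above all CT mice, and LERKO minus CT was 0.39 ± 0.10 (SE) on the log2 scale (limma adjusted p = 0.703). Slc27a2, a peroxisomal synthetase that activates bile acid precursors, also had groups that did not overlap, but by only 0.0040 on the log2 scale, and LERKO minus CT was 0.21 ± 0.098 (SE) on that scale (limma adjusted p = 0.709). It is named after its values were seen. Cyp2c70, which makes the muricholic acids of rodents, had a difference of −0.13 ± 0.087 (SE) on the log2 scale (limma adjusted p = 0.782). Fdx1, which passes electrons to Cyp27a1 and to adrenal enzymes of the same kind, is also named after its values were seen. It was at 7.41 in LERKO replicate 2, the array with adrenal genes, and between 6.60 and 7.08 elsewhere, and its log2 fold change turned from 0.06 to −0.17 without that array and to −0.02 without CT replicate 3. Ch25h and Cyp46a1, which make oxysterols in other ways, did not reach a signal of 100 in any array.

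All 14 regulators of synthesis were kept, with 7 higher and 7 lower means in LERKO and a median difference of 0.01 on the log2 scale. At an unadjusted p under 0.05 in limma 1 was higher (2.98% of all probe sets) and 0 were lower (4% of all probe sets). After adjustment over all probe sets 0 passed. All LERKO mice lay above all CT mice for 1, beside 5.91% of all probe sets, and below for 1, beside 7.13%. These counts were not tested. Nr1h4, the gene of the bile acid receptor FXR, was at 9.38, 9.27 and 9.41 in CT and at 9.52, 9.49 and 9.63 in LERKO. The groups did not overlap, and the fold difference was 1.14 (95% confidence interval 1.01 to 1.30, adjusted p = 0.703 from limma). Its unadjusted p of 0.0427 was 0.0441 without CT replicate 3 and between 0.0537 and 0.136 without any 1 of the other mice.

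Nr0b2, a target of FXR whose product represses Cyp7a1 and Cyp8b1, was at 6.99, 6.04 and 7.28 in CT and at 7.79, 7.04 and 7.11 in LERKO. CT replicate 2 was the lowest mouse here too, and LERKO minus CT, 0.54 ± 0.35 (SE) on the log2 scale with a limma adjusted p of 0.781, was 0.18 without it. Fgfr4, the hepatic receptor for the gut hormone that represses Cyp7a1, was at 9.09, 9.49 and 9.13 in CT and at 8.97, 8.86 and 9.03 in LERKO. Each LERKO mouse was lower than each CT mouse. LERKO minus CT was −0.29 ± 0.12 (SE) on the log2 scale (limma adjusted p = 0.703), and −0.16 without CT replicate 2, the highest mouse. Klb, the coreceptor of Fgfr4, had 0.07, Nr5a2, a nuclear receptor that drives Cyp7a1 and Cyp8b1, had −0.05, and Hnf4a, a hepatocyte factor that acts on many of these genes, had −0.0016, with adjusted p values of 0.823, 0.887 and 0.997 from limma. The value of Hnf4a turned to the other side of 0 under both further normalizations, at 0.0095 with arrays centred on their medians and at 0.0081 with a second quantile normalization.

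Cyp7a1 is known to follow a daily rhythm, so genes of the circadian clock were read beside it. Of 8 clock genes kept, 6 had a higher and 2 a lower mean in LERKO. Their median difference was 0.03 on the log2 scale. At an unadjusted p under 0.05 in limma 0 passed, beside 2.98% of all probe sets higher and 4% lower. Per2 was at 7.48, 7.05 and 7.48 in CT and at 7.52, 7.70 and 7.59 in LERKO. Of the clock genes kept, only Per2 had groups that did not overlap (adjusted p = 0.736 from limma), with LERKO higher, as for 5.91% of all probe sets. It is named after its values were seen, and its log2 fold change of 0.26 was 0.12 without CT replicate 2. Ciart, also named after its values were seen, had the largest difference of the clock genes kept, with groups that overlapped. Its log2 fold change of 0.52 (limma adjusted p = 0.796) was 0.061 without CT replicate 2. The time of day and the feeding state at collection are not given in the sources used here, and their part in the level of Cyp7a1 was not tested.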

How the data were processed

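Per the labels, the authors deposited log2 values that RMA of the oligo package gave for each probe set. This corrects the background, quantile-normalizes the 6 arrays together and summarises probes, and its version is not given in the sources used here. In the platform annotation, 21218 of 35556 probe sets had 1 gene, 1881 several and 12457 none. RefSeq held 21185 of their gene identifiers, from which current symbols were taken. Genes were named from probe sets with 1 gene, and where there were several, as for Hsd3b7 among the enzymes, from that of highest mean. The study's filter on a signal of 100 was read as keeping probe sets that reached it in at least 1 array, which left 10633 (9452 to 9865 at 100 in a single array). It can also be read as requiring that signal in all arrays, which was run as an alternative. LERKO and CT were then compared by limma 3.58.1 (lmFit and eBayes, R 4.3.3), two-sided, with genotype as the only term. P-values were adjusted by the Benjamini-Hochberg method over the 10633 probe sets and read at 0.05. They rest on the spread among 3 mice a group, which limma draws toward the spread of all probe sets. Precision is thus limited by the small number of arrays. The model was also tested on simulated data, whose outcome is not given here, and no result of this report rests on that test.

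The 10 enzymes were chosen by their names and not by their values, and the other gene lists as their context. Earlier results of these data were known when both were chosen. Named are all 10 enzymes, Esr1, genes of the lists of other synthesis genes, regulators and clock genes with an unadjusted p under 0.05, 7 further pathway genes whatever their values, and the 2 markers of highest level in an array that stood apart. Dbp, which the rule also names, had no probe set with 1 gene. Of the biliary list, 1 of 5 genes was kept (Sox9, log2 fold change −0.41). Of the Kupffer cell and female-biased lists, 4 of 5 and 4 of 6 genes were kept, with median log2 fold changes of 0.11 and 0.30. Alternatives concerned the filter, limma's settings, normalization, the t-test of the methods, a replicate block and left-out arrays. Promoter sequences are those of RefSeq, build GRCm38.p6.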

Additional observations from a re-analysis of the deposited data

How the results depend on the processing

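At an adjusted p under 0.05, 0 of the 10 enzymes passed in any of the 17 alternatives, with the adjusted p of Cyp7a1 between 0.156 (limma with a mean-variance trend) and 0.992 (without LERKO replicate 1). Its log2 fold change stayed between 0.42 and 0.51. Over all probe sets 3 passed where a signal of 100 was required in all 6 arrays, Esr1 among them. The paper reports as many changed genes at the same threshold, also with Esr1 among them. Whether the others are the same was not tested. With a mean-variance trend 1 passed (Esr1), and with 1 array left out 0 to 1 did (1 without LERKO replicate 3). The count of enzymes higher in LERKO, 7, ranged from 5 (without CT replicate 2) to 8. With 1 array left out, 1 to 2 enzymes had an unadjusted p under 0.05, the second being Akr1d1 without CT replicate 1, Hsd3b7 without LERKO replicate 2 and Cyp39a1 without LERKO replicate 3. The groups did not overlap for 1 to 4 enzymes with 1 array left out. Without both CT replicate 3 and LERKO replicate 2 this was so for 2. Fewer mice are compared in these fits. The shares of all probe sets in them are not given here, so counts of both kinds were not read as results about the enzymes. Of the 21 other synthesis genes and regulators, 2 were higher at an unadjusted p under 0.05, beside 2.98% of all probe sets. This count was 1 without a signal filter, 1 with the replicate block, 3 with a mean-variance trend or array weights and 1 to 2 with 1 array left out. The count of lower genes, 0, was 1 with a signal of 100 in all 6 arrays, with a mean-variance trend or with probe sets of 1 gene alone. It was 0 to 1 with 1 array left out. The share of 2.98% is that of the main fit. Shares in the other fits are not given here, so these counts were not read as results about the genes.

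The direction of some genes turned. With array weights, the log2 fold changes were −0.016 for Cyp27a1, −0.021 for Fdx1 and 0.021 for Hnf4a. Without both CT replicate 3 and LERKO replicate 2 they were 0.12 for Cyp7b1, −0.25 for Fdx1 and 0.047 for Hnf4a. Hnf4a had 0.0095 with centred arrays and 0.0081 with repeated quantile normalization. With 1 array left out, Cyp8b1 ranged from −0.0069 to 0.55, Cyp27a1 from −0.10 to 0.13, Cyp7b1 from −0.28 to 0.13, Slc27a5 from −0.054 to 0.022, Fdx1 from −0.17 to 0.23 and Hnf4a from −0.052 to 0.036. The cause was not tested. Mice with the same replicate number did not deviate together (correlations of −0.16, −0.07 and −0.14). Of the 6 mice, 0 correlated best with their own number. The main fit did not pair the mice by number, and whether they were paired in the experiment was not tested. With the replicate block in limma the unadjusted p of Cyp7a1 was 0.00427 and its adjusted p 0.863. The t-test of the methods, which does not draw on other probe sets, gave it an unadjusted p of 0.00527 and an adjusted p of 0.897. The second probe set of Hsd3b7 lay below the filter, so it had no fold change in the main fit.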
